A study of Homo sapiens with 6 samples.

Results

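The genes described here are the aminoacyl-tRNA synthetases and the genes of the integrated stress response, chosen by a fixed list of 42 symbols. A gene counted as measured where the array had a probe set annotated to it alone, and 39 of the 42 did, with 73 probe sets out of 41091 annotated to 1 gene. Of the rest, MARS and QARS had only probe sets annotated to more than 1 gene, and DARS is not analysed here. The measured members were 17 cytosolic synthetases, 6 mitochondrial synthetases, 10 genes of the ATF4 axis of the stress response, and 6 stress sensors or genes of endoplasmic reticulum (ER) stress, among 19775 genes in all. Current symbols are used, so that AARS appears as AARS1.

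The study compared 3 arrays of undifferentiated H9 cells, an established human embryonic stem cell (hESC) line, with 3 arrays of mesodermal progenitors made from H9 cells. The progenitors had been induced in Stemline II medium, to which VEGF, FGF2, BMP4 and activin A were added, and sorted by flow cytometry on day 3.5 as CD326-negative, CD56-positive cells. Both groups come from 1 cell line, and the labels name a sort for the progenitors only. Separate cultures are not named in the labels. Each p-value of a group difference here therefore sets it only against the spread among these samples, and that spread may be technical.

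Aminoacyl-tRNA synthetases join each amino acid to its tRNA, with separate enzymes for most amino acids in the cytosol and in mitochondria. The integrated stress response begins with kinases that phosphorylate the initiation factor eIF2, such as EIF2AK4 (GCN2), which senses uncharged tRNA, and EIF2AK3 (PERK), which senses unfolded protein in the ER. General translation then falls while translation of ATF4 mRNA rises. ATF4 is a transcription factor that, with C/EBP partners, activates genes of amino acid synthesis and import and many cytosolic synthetases. Because ATF4 is controlled largely at translation and protein stability, its mRNA level need not follow its activity.

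Each value is a deposited array intensity, given as log2(intensity + 16) after quantile normalization, and a change is the progenitor mean minus the hESC mean on that scale, which understates the change of dim genes. Of 19775 genes, 47.9% differed at an adjusted p under 0.05 by limma, with 26.7% higher and 21.2% lower in the progenitors. The listed cell markers moved with the labels. All 7 measured markers of pluripotent cells were lower and all 8 of early mesoderm higher in the progenitors, and the summed intensity of the latter was 19360 to 20000 there against 206.1 to 293 in hESC. Markers of endothelial and blood cells stood apart on progenitor array 1, at a summed intensity of 7258 against 2139 and 2339 on the other progenitor arrays and 725 to 855.6 in hESC, with 5 of 8 higher over the group. Markers of endoderm also did, with 4 of 7 higher and 1 lower, at 1150 against 453.6 and 459.4, with 327.3 to 374.9 in hESC. HHEX made up most of the sum on array 1, at 626.1 against 91.66 and 101.91 on the other progenitor arrays. Among those arrays SOX17, AFP and APOA2 were also highest on array 1, and FOXA2, FOXA1 and TTR were not. Of 8 neuroectoderm markers 2 were higher, TFAP2A and SOX10, and the summed intensity of the 8 was 492.3 to 515.6 in progenitors and 83.83 to 90.95 in hESC. TFAP2A made up most of the progenitor sum, at a mean intensity of 400.4, and the call of SOX10 (0.36) held in 4 of 19 alternatives. The part of these markers in the results was not tested. The log2 ratio of the 3' to the 5' control probe set of ACTB, a sign of RNA integrity, was 0.42 to 0.52 in progenitors and 0.55 to 1.09 in hESC (exact permutation test, two-sided, p = 0.1, the smallest that 3 arrays against 3 allow), and that of GAPDH differed by 0.065 (p = 0.3).

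In the progenitors 19 of the 39 members were lower and 2 were higher, and 18 did not pass the test, where 21.2% of all genes were lower and 26.7% higher. The members lower by at least 2-fold were CHAC1, VLDLR, ASNS and LARS2, and the only one higher by that much was the ER stress sensor ATF6, where 7.22% of all genes were called lower and 9.39% higher by at least that much. The median change of the members was -0.34, beside 0.04 over all genes. The arrays of the groups did not overlap for 21 members that were lower and 6 that were higher, where 57.3% of all genes were so separated, 25.3% lower and 32.0% higher. These directions are relative to the bulk of transcripts. When arrays were instead scaled on their spiked hybridization controls, the median of all genes moved to 0.32 and that of the members to 0.15, and of the 19 decreases those of CHAC1, VLDLR, ASNS, LARS2 and TARS1 still passed. CHAC1, VLDLR, LARS2 and TARS1 stayed lower, and ATF6 higher, at an adjusted p under 0.05 in each of the alternative settings in which they were measured. In RNA from a whole population, fewer cells that make a transcript and less of it per cell cannot be told apart.

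**Figure D1:**
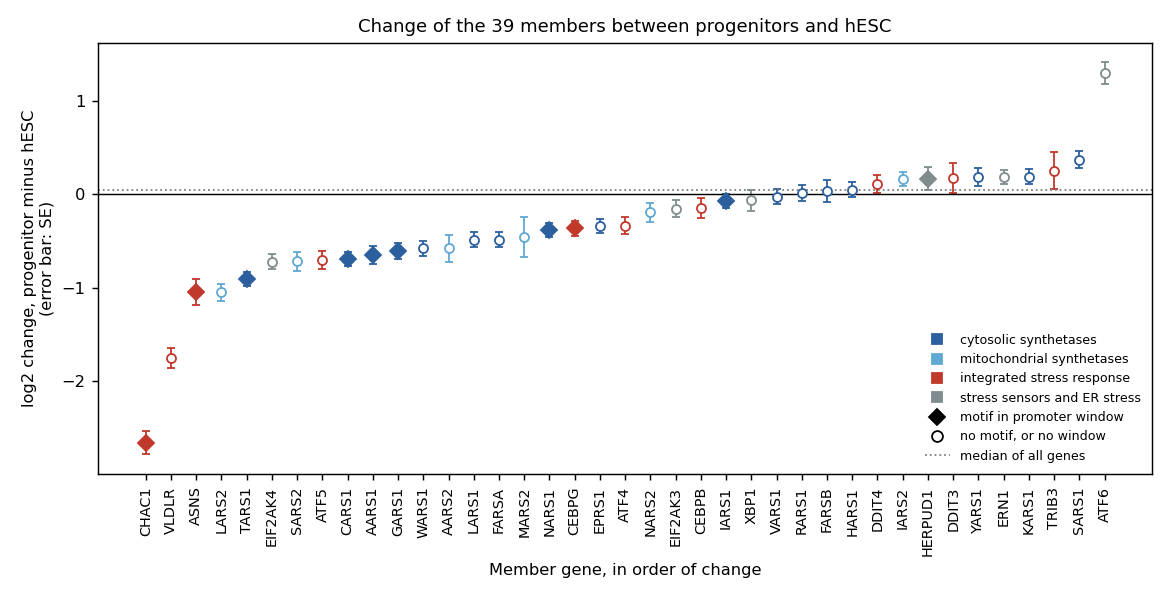
The log2 change (progenitor minus hESC, with SE) of each of the 39 members, in order of change. Colours give the class of the gene, filled diamonds mark a TGATGNAA match in the promoter window, and the dotted line is the median of all genes at 0.04; CHAC1 at -2.66 and ATF6 at 1.30 are the ends of the range.

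Transcripts of the cytosolic synthetases were mostly lower in the progenitors. Of 17 measured, 9 were lower (52.9%), 1 was higher and 7 did not pass, and the median change was -0.34. These are abundant transcripts, the dimmest of them brighter than 82.9% of genes. Of the 3390 genes at least as bright as the dimmest of them, 26.0% were lower and 30.6% higher. The decreases were of similar and modest size, from -0.34 to -0.91. With scaling on hybridization controls 1 of the 17 was lower and 8 were higher, and the median change was 0.12, below the 0.32 of all genes. The number lower was 9 when each array was left out in turn.

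TARS1, the threonyl-tRNA synthetase, had the largest decrease. It was at 10.79, 10.80 and 10.83 on the progenitor arrays and at 11.67, 11.75 and 11.74 on the hESC arrays. The groups were well apart, and the spread within each was below 0.1. TARS1 fell by 0.91 (SE 0.08, adjusted p = 5.94e-05, limma), a fall of mean intensity from 3421 to 1731. CARS1, which charges cysteine, was at 11.10, 11.19 and 11.19 in progenitors against 11.90, 11.85 and 11.82 in hESC. AARS1, which charges alanine, was at 10.61, 10.84 and 10.83 against 11.44, 11.41 and 11.38. GARS1, the glycyl enzyme, was at 11.32, 11.42 and 11.46 against 12.02, 11.96 and 12.05. In each of these genes every progenitor array lay below every hESC array, and the changes were -0.70 for CARS1, -0.65 for AARS1 and -0.61 for GARS1.

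The other cytosolic enzymes that fell were WARS1 for tryptophan (-0.58), LARS1 for leucine (-0.49), FARSA, the catalytic subunit of the phenylalanyl enzyme (-0.49), NARS1 for asparagine (-0.38) and the bifunctional glutamyl-prolyl enzyme EPRS1 (-0.34). EPRS1 and NARS1 turned in sign, to 0.12 and 0.087, without passing, with scaling on hybridization controls. The call of EPRS1 was also lost with its probe sets averaged (-0.089), its other probe sets being at -0.00014 and 0.076. SARS1, which charges serine, was the 1 cytosolic synthetase that was higher. It was at 10.65, 10.70 and 10.71 in progenitors and at 10.30, 10.19 and 10.45 in hESC, a change of 0.37 (SE 0.09, adjusted p = 0.0128, limma). The groups did not overlap, but the call of SARS1 was lost when progenitor array 3 was left out (0.36, adjusted p = 0.0512, limma), with median centring (0.15) and with its probe sets averaged (0.20).

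For 7 enzymes no difference was detected at this number of arrays. KARS1 and YARS1, for lysine and tyrosine, differed by 0.19 and 0.18, and IARS1, for isoleucine, by -0.07, each with no overlap of the arrays. YARS1 was called lower with its probe sets averaged (-0.91) and with cross-matching probe sets (those that the array's design marks as able to match more than 1 transcript) removed (-1.99). HARS1, FARSB, RARS1 and VARS1 differed by between -0.03 and 0.05. FARSB, the partner subunit of FARSA, was spread from 9.68 to 10.10 over the hESC arrays, and the 95% interval of its change of 0.03 ran from -0.25 to 0.31. It too was called lower with its probe sets averaged (-0.66) and with cross-matching ones removed (-1.05), where it rested on a probe set with a mean intensity of 18.6. Several synthetases are held in a multisynthetase complex, and 2 of the 5 measured complex members (EPRS1 and LARS1) were lower, against 7 of the 12 cytosolic subunits outside it. By catalytic fold, 3 of 7 class I and 5 of 9 class II subunits were lower, leaving out EPRS1, which holds both. The difference between these subgroups was not tested.

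**Figure D2:**
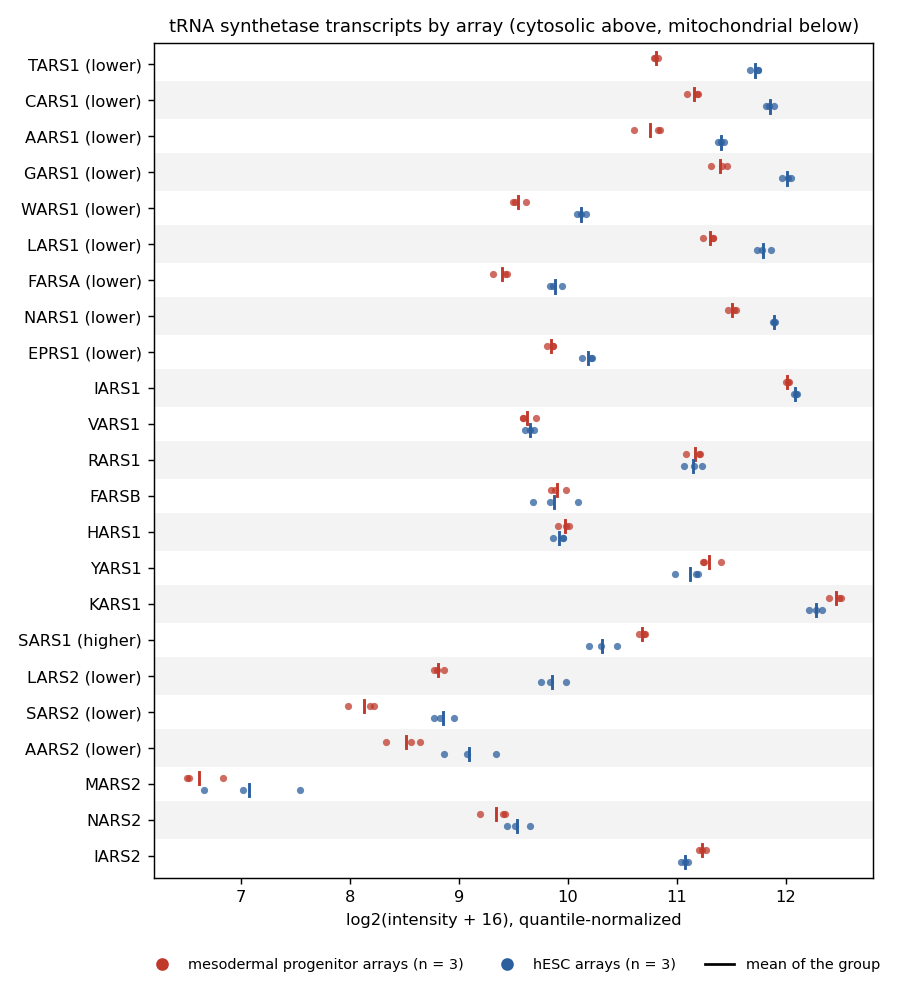
Level of each measured synthetase on each array, as log2(intensity + 16) after quantile normalization, with progenitor arrays in red, hESC arrays in blue and a bar at each group's mean. The 17 cytosolic genes stand above the 6 mitochondrial ones, each in order of change, and the calls of the limma test are in brackets; TARS1 and LARS2 show the widest gaps in their classes.

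ATF4 and its C/EBP partners bind composite sites whose core can be written TGATGNAA, where N is any base. This word was searched on both strands of promoter windows, taken from RefSeq on GRCh38.p14 and running from 250 bases before to 50 after each start, and 35 of the 39 members had a window. It occurred in 10 of the 35 (28.6%), where it occurred in 3.61% of 15384 tested genes with a window. Of those 10 genes, 8 were lower in the progenitors and 2 did not pass. By class of member it was in 6 of 14 cytosolic synthetases, in 3 of 10 genes of the ATF4 axis, in 1 of 6 sensors and ER stress genes, and in 0 of 5 mitochondrial synthetases. The last count is for the listed members only. Of 13 other synthetases and synthetase partners with a window, 1 held the word. That was the mitochondrial synthetase YARS2 (-0.095), which did not pass. Among the members that fell, 8 of 17 held it, against 2 of 16 that did not pass and 0 of 2 that rose. Over all tested genes with a window, 3.06% of the lower, 4.13% of those not called and 3.09% of the higher held it. These differences were not tested. A match is a run of letters and not a shown site of binding. The matches in members are given so that they can be compared, each with the word in capitals and 11 bases on either side, 5′ to 3′ on the strand that reads TGATG.
CHAC1, chr15:40953251-40953280, minus strand: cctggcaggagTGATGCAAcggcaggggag
ASNS, chr7:97872458-97872487, minus strand: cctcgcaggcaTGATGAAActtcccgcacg
TARS1, chr5:33440956-33440985, minus strand: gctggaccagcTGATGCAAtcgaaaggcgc
CARS1, chr11:3057407-3057436, plus strand: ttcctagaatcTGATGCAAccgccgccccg
AARS1, chr16:70289675-70289704, plus strand: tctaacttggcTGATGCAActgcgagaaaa
GARS1, chr7:30594834-30594863, minus strand: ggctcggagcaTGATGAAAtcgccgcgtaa
NARS1, chr18:57621804-57621833, minus strand: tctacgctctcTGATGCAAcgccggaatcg
CEBPG, chr19:33374060-33374089, plus strand: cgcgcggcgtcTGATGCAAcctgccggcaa
IARS1, chr9:92293692-92293721, plus strand: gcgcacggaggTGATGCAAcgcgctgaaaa
HERPUD1, chr16:56931955-56931984, minus strand: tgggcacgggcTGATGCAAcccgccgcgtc

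The first 8 of these belong to genes that fell, by -2.66 for CHAC1, -1.05 for ASNS, -0.91 for TARS1, -0.70 for CARS1, -0.65 for AARS1, -0.61 for GARS1, -0.38 for NARS1 and -0.37 for CEBPG. The last belong to IARS1 (-0.07) and HERPUD1 (0.17), which did not pass. The variable base was C in all but ASNS and GARS1. The word lay across or just after the annotated start in CARS1, TARS1 and NARS1, and upstream of it in the others, from position -13 in IARS1 to -209 in CHAC1. The 5 largest decreases among cytosolic synthetases were TARS1, CARS1, AARS1, GARS1 and WARS1, and 4 of these genes held the word. Members that fell without it in this window included VLDLR and ATF5.

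The 250 bases before the start of CHAC1 and ASNS are shown whole, on the gene's own strand, because both fell by 2-fold or more and both held the word. In CHAC1 it is read on the opposite strand and appears as its reverse complement, TTGCATCA.
CHAC1, chr15:40953221-40953470, plus strand: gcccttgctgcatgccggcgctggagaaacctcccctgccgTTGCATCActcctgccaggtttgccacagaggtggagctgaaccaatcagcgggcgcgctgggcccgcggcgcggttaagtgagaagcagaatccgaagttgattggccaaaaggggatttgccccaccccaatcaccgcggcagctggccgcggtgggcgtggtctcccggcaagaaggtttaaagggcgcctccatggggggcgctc
ASNS, chr7:97872409-97872658, minus strand: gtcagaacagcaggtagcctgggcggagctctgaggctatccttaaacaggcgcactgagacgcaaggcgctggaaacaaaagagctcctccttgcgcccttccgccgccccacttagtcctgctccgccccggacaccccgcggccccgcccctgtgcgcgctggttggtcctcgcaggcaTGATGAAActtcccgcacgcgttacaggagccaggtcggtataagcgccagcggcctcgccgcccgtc

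The mitochondrial synthetases among the members were less bright, and 3 of these 6 were lower, 0 were higher and 3 did not pass (median change -0.52). Over all genes 21.2% were lower and 26.7% higher. LARS2, the mitochondrial leucyl enzyme, was at 8.77, 8.86 and 8.80 in progenitors and at 9.76, 9.98 and 9.84 in hESC. It fell by 1.05 (SE 0.09, adjusted p = 7.08e-05, limma), with no overlap of the arrays, and its other probe set gave -1.09. SARS2, for serine, was at 7.98, 8.22 and 8.19 against 8.95, 8.77 and 8.83, a change of -0.72, in the direction opposite to its cytosolic counterpart SARS1. AARS2, for alanine, was at 8.33, 8.57 and 8.64 against 9.08, 9.34 and 8.86, a change of -0.58. MARS2 differed by -0.46, but hESC arrays ranged from 6.67 to 7.55 and overlapped the progenitors; it passed without hESC array 2 (-0.67, adjusted p = 0.0343). NARS2 differed by -0.19 and IARS2 by 0.16, neither passing. Scaling on hybridization controls ended the calls of SARS2 (-0.19) and AARS2 (-0.063).

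In the ATF4 axis 6 of 10 genes were lower (60%), 0 were higher and 4 did not pass, with a median change of -0.35. Of the 9408 genes at least as bright as the dimmest of the 10, 28.9% were lower. Over all genes 26.7% were higher at the adjusted threshold. At an unadjusted p under 0.05 by limma the count of higher genes among the 10 was also 0. The share over all genes at that threshold is not given here. ATF4 itself, an abundant transcript, was at 11.68, 11.83 and 11.83 in progenitors and at 12.12, 12.03 and 12.20 in hESC. The groups did not overlap, but the gap was small. ATF4 fell by 0.34 (SE 0.09, adjusted p = 0.0172, limma), lost its call when hESC array 1 was left out (-0.33, adjusted p = 0.0525), and turned to 0.15, not called, under hybridization-control scaling. ATF5, a related factor that is also controlled at translation, was dimmer, at 6.72, 6.76 and 6.74 against 7.50, 7.29 and 7.55, a change of -0.70. Its call was lost with probe sets averaged (-0.26) and under hybridization-control scaling (-0.24).

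The targets with the largest decreases were CHAC1, VLDLR and ASNS. CHAC1, an enzyme that breaks down glutathione, was at 5.85, 5.95 and 5.71 in progenitors and at 8.57, 8.27 and 8.65 in hESC. It fell by 2.66 (SE 0.12, adjusted p = 3.28e-06, limma), from a mean intensity of 345.1 to 39.07, a larger decrease than in all but 0.9% of genes, and was at -3.05 with a pseudocount of 1. VLDLR, a lipoprotein receptor, was at 7.12, 7.22 and 7.35 against 8.88, 8.95 and 9.13, and fell by 1.75 (SE 0.10). ASNS, asparagine synthetase, was at 9.77, 10.23 and 10.19 against 11.03, 11.07 and 11.24. Progenitor array 1 was the lowest of the 6 for ASNS, and the groups did not overlap. ASNS fell by 1.05 (SE 0.14, adjusted p = 0.00063, limma) and by 0.90 without that array. The summed intensities of endothelial and of endoderm markers, the latter mostly HHEX, were highest on that array. The part of these markers in the result was not tested. With cross-matching probe sets removed, ASNS rested on a probe set with a mean intensity of 11.7 and was not called (-0.37). CEBPG, a partner of ATF4, was at 8.97, 8.95 and 8.98 against 9.27, 9.40 and 9.34, a change of -0.37. Its other probe set differed by 0.24 without passing, and the gene did not pass on the mean of both (-0.064).

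The other 4 genes of this axis, DDIT3, TRIB3, DDIT4 and CEBPB, did not pass. DDIT3 (CHOP), a pro-apoptotic factor induced by ATF4, was at 7.66, 7.34 and 7.43 in progenitors and at 7.21, 7.63 and 7.08 in hESC. The groups overlapped, with a difference of 0.17 (95% interval -0.20 to 0.55). TRIB3, a pseudokinase that restrains AKT and ATF4, was at 9.13, 8.39 and 8.47 against 8.41, 8.26 and 8.56. Its difference of 0.25 did not pass and was 0.019 without progenitor array 1, the array that stood apart. TRIB3 was called higher with its probe sets averaged (0.62), of which the dimmer had a mean intensity of 29.8. DDIT4, an inhibitor of mTORC1, differed by 0.11 (95% interval -0.12 to 0.34), and CEBPB by -0.15. DDIT3, DDIT4 and TRIB3 passed as higher with scaling on hybridization controls (0.68, 0.65 and 0.78).

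**Figure D3:**
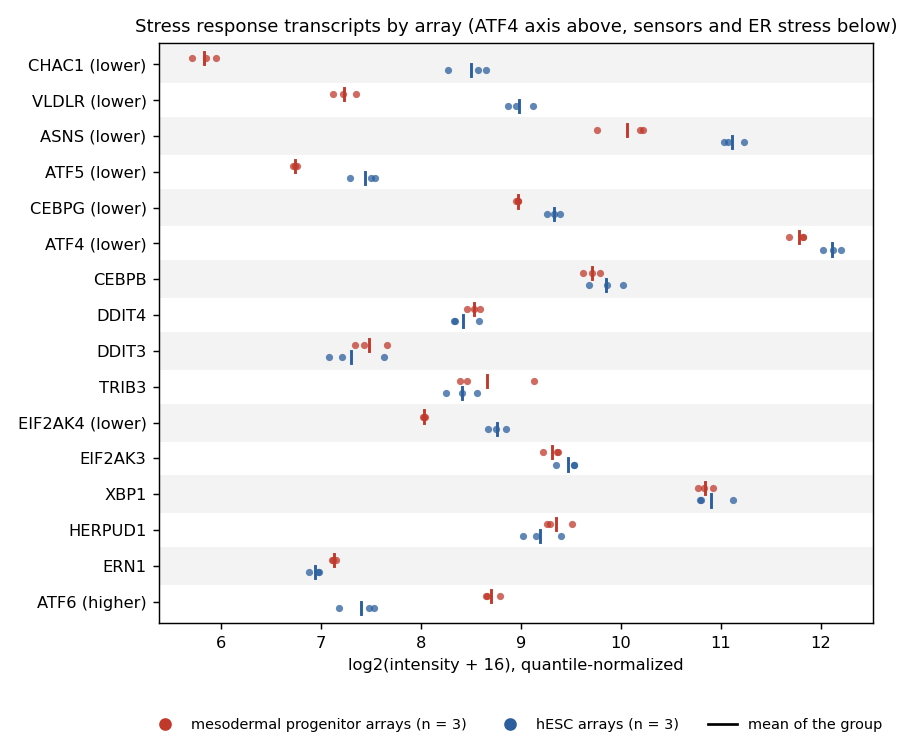
Level of the 10 genes of the ATF4 axis and of the 6 sensors and ER stress genes on each array, as log2(intensity + 16) after quantile normalization, with progenitor arrays in red, hESC arrays in blue and a bar at each group's mean. CHAC1, VLDLR and ASNS are separated by 1.05 or more, ATF4 by 0.34, and DDIT3, DDIT4 and TRIB3 overlap.

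Of the 6 sensors and ER stress genes, 1 was lower, 1 was higher and 4 did not pass, where 21.2% of all genes were lower and 26.7% higher. EIF2AK4 (GCN2), the kinase that responds to amino acid shortage, was at 8.02, 8.05 and 8.04 in progenitors and at 8.68, 8.85 and 8.75 in hESC. It fell by 0.72 (SE 0.08, adjusted p = 0.00028, limma), but not past the threshold under hybridization-control scaling (-0.19) or with cross-matching probe sets removed (-0.28). EIF2AK3 (PERK) differed by -0.15 (95% interval -0.37 to 0.067). ATF6, a membrane-bound factor that is cut in the Golgi and then induces ER chaperones, was at 8.79, 8.66 and 8.65 against 7.49, 7.18 and 7.53. All progenitor arrays were above all hESC arrays. ATF6 rose by 1.30 (SE 0.11, adjusted p = 7.65e-05, limma), and its other 3 probe sets rose by 0.68, 0.99 and 1.57. XBP1, the factor spliced by the sensor ERN1 (IRE1), differed by -0.063. It was called lower with probe sets averaged (-0.32) and with median centring (-0.29). The other probe set of XBP1, at a mean intensity of 33.4, fell by 0.57. ERN1 differed by 0.18 with no overlap of the arrays and did not pass (adjusted p = 0.0908, limma). It was called higher in 4 of 21 alternatives, among them that with its probe sets averaged (0.42). Its dimmest probe set, at a mean intensity of 49.7, rose by 0.89, and another differed by 0.18 without passing. HERPUD1, a gene of ER-associated degradation, differed by 0.17. A gene-level array value does not show splicing of XBP1 or cleavage of ATF6.

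Of the 39 members, 23 had several probe sets, and these gave the same sign in all probe sets for 14. No member had probe sets called in opposite directions. The 73 probe sets comprised 33 called lower, 7 called higher and 33 not called. The share over all probe sets is not given here, and over all genes 21.2% were lower and 26.7% higher. YARS1 showed the widest gap. Its brightest probe set, at a mean intensity of 2361, differed by 0.18, while another, at 311.8, fell by 1.99. LARS1 fell by 0.49 and 0.54 on its pair of brightest probe sets and by 1.94 on the next, and differed by 0.24 on the dimmest without passing. All 4 are of the cross-matching type. All 4 probe sets of CARS1 fell, by 0.70 to 1.81. In FARSB, HERPUD1 and TRIB3 the dimmer probe sets that passed had mean intensities of 18.6 to 29.8. On them FARSB fell by 0.97 and 1.05 and HERPUD1 by 1.08, and TRIB3 rose by 0.98.

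**Figure D4:**
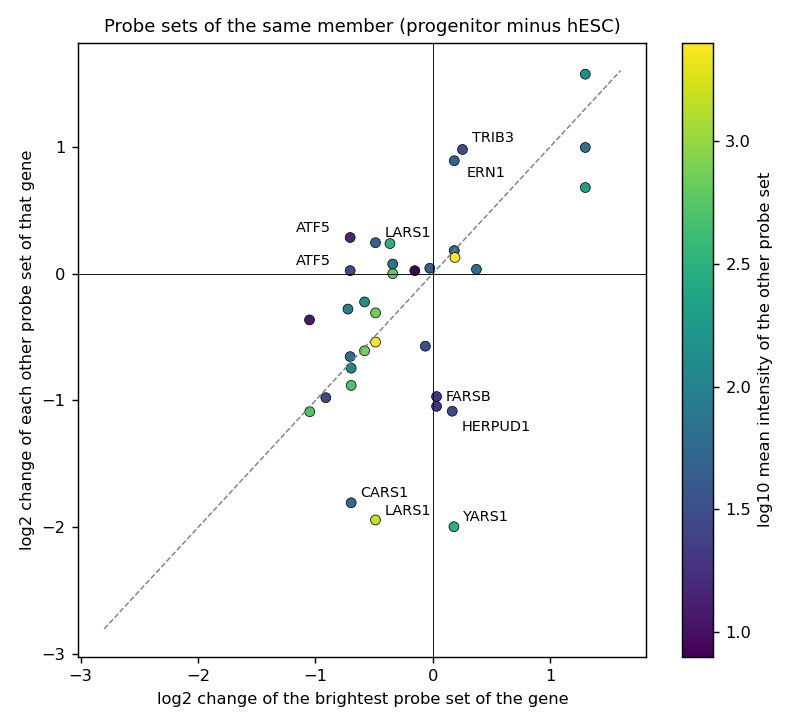
For members with several probe sets, the log2 change (progenitor minus hESC) of each other probe set against that of the gene's brightest one; colour gives the log10 mean intensity of the other probe set and the dashed line marks equal change. YARS1 at 0.18 and -1.99 lies farthest from the line, and the 3 other ATF6 probe sets all lie above 0.

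Other genes of the same pathways, from lists chosen with earlier results of these data known, moved in both directions. Of 16 other synthetases and synthetase partners measured, 5 were higher and 5 lower (31.2% each), where 26.7% of all genes were higher and 21.2% lower. GATC, a subunit of the mitochondrial glutamyl-tRNA amidotransferase, and VARS2, the mitochondrial valyl enzyme, fell by 1.43 and 1.25. SEPSECS and PSTK, which make selenocysteine on its tRNA, rose by 1.18 and 0.88. YARS2, the brightest that did not pass, differed by -0.095. Chosen after their values were seen, the mitochondrial synthetases CARS2 (-0.50) and EARS2 (-0.47) fell and RARS2 (0.34) rose. Scaling on hybridization controls ended the calls of CARS2 and EARS2, and that of RARS2 held in 15 of 21 alternatives. The mitochondrial FARS2, HARS2, PARS2 and WARS2 did not pass. AIMP1, a scaffold of the multisynthetase complex chosen after its value was seen, rose by 0.71.

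Of 39 other genes of eIF2 control and ATF4 targets, 12 were higher (30.8%) and 14 lower (35.9%), beside 26.7% and 21.2% of all genes. Their median change was 0.0057, beside 0.04 over all genes. The decreases were led by STC2, a secreted glycoprotein, at -3.91, and SLC7A11, the cystine importer, at -3.81. SLC7A11 was at 7.13 ± 0.54 (SD, n = 3) in progenitors and 10.94 ± 0.15 in hESC. The increases were led by the stress cytokine GDF15, at 2.21, and the factor CEBPD, at 2.06, and neither was called with cross-matching probe sets removed (-0.20 and 0.083). EIF2S2, a subunit of eIF2 and the brightest that did not pass, differed by 0.0057. Chosen after their values were seen, the 8 amino acid transporter genes of the list were 6 lower and 2 higher. Beside SLC7A11, SLC7A5 fell by 1.64, SLC7A1 by 1.38, SLC3A2 by 1.26, SLC1A5 by 0.98 and SLC38A2 by 0.50, while SLC6A9 rose by 0.42 and SLC1A4 by 0.32. The call of SLC38A2 was lost under hybridization-control scaling, that of SLC6A9 with median centring, and that of SLC1A4 in 15 of 20 alternatives. PCK2, a mitochondrial gluconeogenic enzyme, fell by 1.01. Of the enzymes of serine and glycine synthesis, PSAT1 (-0.59), PHGDH (-0.54) and SHMT2 (-0.48) fell and PSPH (0.021) did not pass, and scaling on hybridization controls ended the calls of all that fell. Also chosen so, PPP1R15A (GADD34), which directs the removal of phosphate from eIF2, rose by 0.81, and ATF3, a stress-induced factor, by 0.57, a call lost with probe sets averaged (0.22) and with cross-matching ones removed (0.26). Of 10 measured genes that respond quickly to dissociation and handling, 7 were higher and 1 lower, where 26.7% and 21.2% of all genes were. FOS was at 2.93, EGR1 at 2.30 and JUNB at 2.08, and HSPH1, the 1 lower, at -0.26. The summed intensity of these 10 genes was 8843 to 10430 in progenitors and 7168 to 7388 in hESC. Their part in the result was not tested.

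Of 28 other ER stress genes 9 were higher (32.1%) and 5 lower (17.9%), near the 26.7% and 21.2% of all genes. Their median change was 0.15, beside 0.04 over all genes. CREB3L2, a membrane-bound factor of the ATF6 type, rose by 1.18, MBTPS2, a protease that releases ATF6, by 0.92, SEL1L, of ER-associated degradation, by 0.87, and the cochaperone DNAJB9 by 0.85. DERL3, also of ER-associated degradation, fell by 0.71, and the disulfide isomerase PDIA3, the brightest that did not pass, differed by -0.18. Chosen after their values were seen, MBTPS1, the other protease that cuts ATF6, rose by 0.72, whereas the ER chaperone HSPA5 (BiP) was at 12.31 ± 0.04 (SD, n = 3) in progenitors and 12.59 ± 0.04 in hESC, a change of -0.28. That call was lost in 7 of 21 alternatives. Among them were those without progenitor array 2 (-0.26) or 3 (-0.26) or with both averaged, and those with probe sets averaged (0.11) and hybridization-control scaling (0.24). With that scaling 21 of the 28 were higher and 0 were lower by limma, where 46% of all genes were higher and 10.1% lower. DERL3 was then at -0.28.

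**Figure D5:**
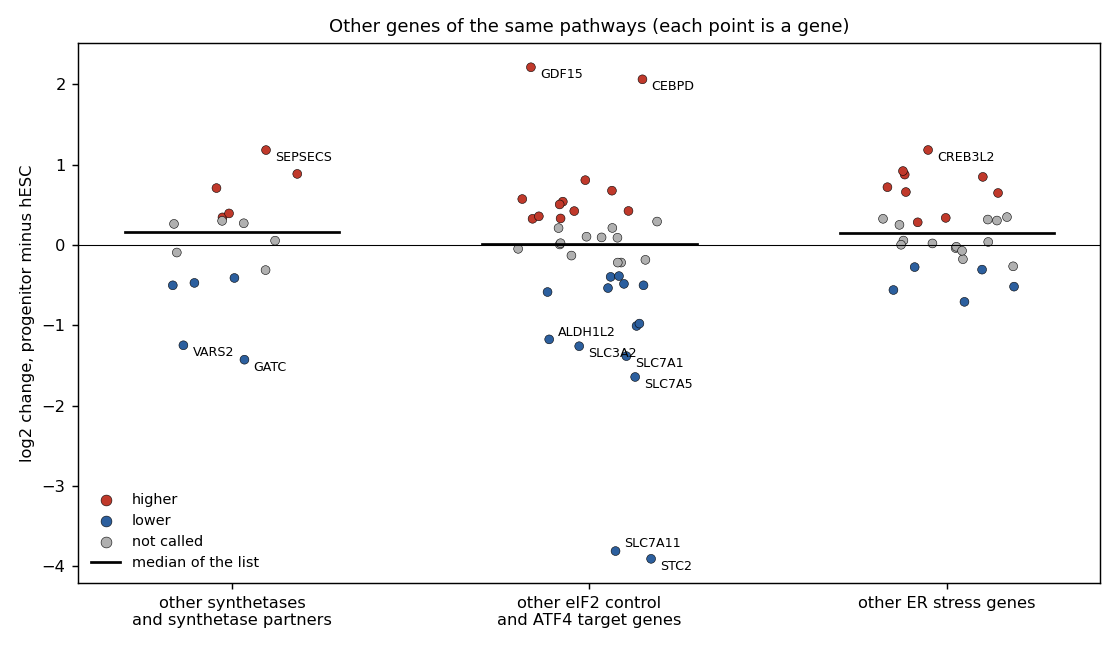
The log2 change (progenitor minus hESC) of each measured gene of the 3 further pathway lists, coloured by its call in the limma test, with a bar at each list's median. STC2 (-3.91) and SLC7A11 (-3.81) lie far below the rest, and the list medians lie at 0.16, 0.0057 and 0.15.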

How the data were processed

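Gene expression was measured on 6 one-colour arrays with biotinylated cRNA, per the labels' protocols. The authors' deposited values are intensities on a linear scale; how they were summarised, background-corrected and scaled is not given in the sources used here. Among them 2.15% were exactly 1 and 19 lay below 1. Values were converted to log2(intensity + 16) and quantile-normalized, since the array medians differed by up to 0.1495. Of 54675 probe sets, 41091 were annotated to 1 gene, and 62 array controls were left out of the tests. Symbols were updated through gene identifiers for 41037 probe sets. Each gene was represented by its brightest probe set. The test was limma 3.58.1 (lmFit, then eBayes, in R 4.3.3), two-sided, with Benjamini-Hochberg adjustment over 19775 genes. For the RNA integrity ratios an exact permutation test was used. The limma step was first tested on simulated data. Motifs and figures were made with Python 3.11.15 and matplotlib 3.10.9.

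The members and gene lists were chosen with earlier results of these data known. All members are named. Array values are given for members called with a log2 change of at least 0.8, for ATF4 and DDIT3, and for further members where the text turns on them. Of each pathway list the 4 largest called changes, the largest opposite one and the brightest gene not called are named, and others are said to be chosen after their values were seen. With 3 arrays in a group, precision is limited by that number. The 21 alternatives cover normalization, pseudocount, filters on dim genes, probe set choice, variance model, replicate block, averaged or left-out arrays and the threshold.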

Additional observations from a re-analysis of the deposited data

How the results depend on the processing

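Of the 21 members called, 5 kept their call and direction in each of the alternatives run (CHAC1, VLDLR, LARS2, TARS1 and ATF6). Scaling on hybridization controls moved most counts. All genes were then 9102 higher and 2002 lower, cytosolic synthetases 8 higher and 1 lower, mitochondrial ones 1 higher and 1 lower, the ATF4 axis 3 and 3, sensors 3 and 0, other synthetases 10 and 2, other eIF2 and ATF4 genes 20 and 8, and other ER stress genes 21 and 0. Among members called either there or in the main setting, EPRS1 (0.12), IARS1 (0.42), NARS1 (0.087), VARS1 (0.45), ATF4 (0.15) and CEBPG (0.13) turned in sign. The share of higher genes among all those called was 82.0% there and 37.2% with median centring, against 55.8%. The hybridization controls themselves were lower on progenitor arrays, by 0.31 to 0.67.

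With median centring 6447 genes were lower, 0 cytosolic synthetases were higher, 5 mitochondrial ones and 3 sensors lower, and 3 other synthetases higher. A pseudocount of 64 gave 2 cytosolic and 1 mitochondrial synthetase and 2 sensors higher. Leaving out the dimmest 50% gave 2 cytosolic synthetases and 2 sensors higher, and limma trend 2 cytosolic and 1 mitochondrial synthetase higher. On the mean of probe sets 0 cytosolic synthetases, 1 gene of the ATF4 axis and 2 sensors were higher, and 2 sensors were lower. FARSB (-0.66) and YARS1 (-0.91) turned there and were called lower. With cross-matching probe sets removed, 3 of 7 genes of the ATF4 axis were lower and 7 other eIF2 and ATF4 genes were higher. FARSB (-1.05), YARS1 (-1.99) and HERPUD1 (-1.08) then turned and were called lower. At an adjusted p under 0.01, 0 cytosolic and 3 other synthetases were higher and 3 other ER stress genes lower. With progenitor arrays 2 and 3 averaged, 3 other synthetases were higher. The cause of these differences was not tested, except that fewer genes were measured with those probe sets removed.

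Leaving out each array gave 0 to 1 cytosolic synthetases higher and 9 lower, 3 to 4 mitochondrial ones lower, 5 to 6 genes of the ATF4 axis lower, 3 to 6 other synthetases higher and 4 to 6 lower, 10 to 13 other eIF2 and ATF4 genes higher and 14 lower, and 7 to 11 other ER stress genes higher and 3 to 6 lower, with 4398 to 5290 of all genes higher and 3511 to 4048 lower. An arm then held 2 arrays. The replicate numbers gave no sign of pairing, as deviations of same-numbered arrays correlated at -0.022, 0.027 and -0.038. With the replicate number as a block, 4956 genes were higher and 3924 lower, with 9 cytosolic synthetases and 6 genes of the ATF4 axis lower and 4 other ER stress genes lower, and it changed no call of a member; among the further genes named, it ended those of HSPA5, SLC1A4, SOX10 and HSPH1.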

Other observations

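Over all tested genes with a promoter window, the share of lower genes was not larger among those with the word TGATGNAA, a description with no test. Of 556 genes that held it, 18.0% were lower and 23.7% higher in the progenitors, against 21.4% and 27.9% of the 14828 genes without it. Among other eIF2 control and ATF4 target genes, 9 of 30 with a window held it. Of these SLC7A1, SLC3A2 and SLC1A5 were lower, while ATF3, JDP2, PPP1R15B and SLC1A4 were higher and FGF21 and DDR2 did not pass. The call of SLC1A4 (0.32) held in few alternatives, and with cross-matching probe sets removed the gene was called lower (-0.40).

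The ER stress element, searched on both strands as CCAAT and CCACG with 9 bases of any kind between them, occurred in 7 of 25 other ER stress genes with a window (28.0%) and in 18 of 15384 tested genes (0.117%). XBP1 was the 1 member that held it. The genes with it were HSPA5 and CRELD2, which were lower, ERO1B and SERP1, which were higher, and CALR, HSP90B1 and PDIA6, which did not pass. XBP1 did not pass either.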
